A study of Mus musculus with 4 samples.

Results

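The 7 genes described here build the mouse major histocompatibility complex (MHC) class II system: the chain genes H2-Aa, H2-Ab1 and H2-Eb1, the invariant chain gene Cd74, the peptide exchange genes H2-DMa and H2-DMb1, and the transactivator gene Ciita. They were taken by symbol from the 31253 genes of the count tables, and all 7 were present there. Their differences between HFpEF and NC libraries were known when they were chosen, so every HFpEF-to-NC value of these 7 genes below is a description with no test.

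The libraries were 3′ single-cell RNA-seq of RFP-positive cells sorted from the left ventricle of mice, 2 from NC mice (labelled Chow diet) and 2 from HFpEF mice (labelled HFD plus L-NAME), with the question of how endothelial cells (ECs) change in heart failure with preserved ejection fraction (HFpEF). Fat supplied 10% of the energy in the chow of NC mice, which drank normal water. It supplied 60% in the diet of HFpEF mice, whose water held 0.5 mg/mL of L-NAME, an inhibitor of nitric oxide synthases, for 20 weeks. The floxed Scarb1 allele was made in C57BL/6N mice, and all mice carried this allele, the tamoxifen-inducible Cdh5-CreER, driven by the promoter of the endothelial cadherin gene, and the R26-stop-tdTomato reporter. Tamoxifen was injected 5 times from 7 weeks of age. The study describes NC and HFpEF mice of both Scarb1 genotypes (S fl/fl and S fl/+), but the labels do not give the genotype or the number of mice behind a library. The paper's single-cell comparison has 4 groups, each diet with each genotype, and there are 4 libraries. Each library may therefore be a single such group with no replicate. The 2 libraries of a diet may then differ in genotype, and their spread may include it. Diet, genotype and animal cannot be told apart where they differ between libraries, and every p-value below rests on these 4 libraries alone. Between the diets it measures the spread between libraries. Between cell classes, or between parts of a class, it measures only the spread of the differences within libraries. The edgeR test estimates either spread with help from all genes and from the UMI counts of the sums. A very small p therefore does not measure how far 4 libraries, or animals, agree.

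A unique molecular identifier (UMI) marks 1 captured RNA molecule, and levels are given as CPM, the UMIs of a gene scaled to the total UMIs of the summed cells. Of 40154 cells that passed the filters, 35076 (87.4%) carried markers of capillary, artery or vein ECs, and cells of other lineages were present despite the sort: 1429 mural cells, myeloid cells (3 to 64 per library), 68 B cells and 34 T cells. The libraries stood apart in depth and size. The median was 3754 and 4127 UMIs per cell in NC and 1736.5 and 1619 in HFpEF, HFpEF replicate 2 held 20882 of the cells, and the kept cells of a library summed to between 10801149 and 47117650 UMIs. Hemoglobin RNA in capillary ECs made up 493 and 348 CPM in NC against 1029 and 3358 CPM in HFpEF. Pairs of libraries shared 9 to 39 cell barcodes.

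MHC class II molecules hold peptides from endocytosed proteins on the cell surface and show them to CD4+ T cells. An alpha and a beta chain (H2-Aa with H2-Ab1; H2-Eb1 is the other beta chain) assemble on the invariant chain Cd74, which blocks the groove until cathepsins degrade it, and H2-DM then exchanges the remaining fragment for antigenic peptide. B cells, dendritic cells and many macrophages make these proteins constitutively, while ECs make little of them unless interferon-gamma induces CIITA, which acts through the RFX and NF-Y proteins bound to the X and Y boxes of class II promoters.

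Of these genes, 5 lie on chromosome 17 of GRCm38 (mm10), in the order H2-DMa (34119541 to 34139101, plus strand), H2-DMb1 (34153072 to 34160230, plus), H2-Ab1 (34257689 to 34269419, plus), H2-Aa (34282744 to 34287823, minus) and H2-Eb1 (34305867 to 34316674, plus). Ciita lies on chromosome 16 from 10480059 to 10528418, plus strand. The 150 bases before the RefSeq start sites (GRCm38.p6) of the H2-Aa and H2-Eb1 genes are shown because these chains defined the class II-positive ECs described further on. Capitals mark the Y box, CTGATTGG, in both and the X box core, GCAACNG, in H2-Eb1.
H2-Aa, chr17:34287824-34287973, minus strand: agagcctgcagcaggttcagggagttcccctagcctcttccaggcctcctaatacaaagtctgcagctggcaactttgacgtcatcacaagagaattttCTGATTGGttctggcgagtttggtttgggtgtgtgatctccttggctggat
H2-Eb1, chr17:34305717-34305866, plus strand: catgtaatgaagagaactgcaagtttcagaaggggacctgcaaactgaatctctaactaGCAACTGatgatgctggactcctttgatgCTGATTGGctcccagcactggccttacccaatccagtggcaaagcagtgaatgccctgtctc

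The Y box ends 44 bases before the start of H2-Aa and 55 bases before that of H2-Eb1, and the X box core of H2-Eb1 ends 85 bases before its start. On both strands, the Y box letters stood in 4.1% of 32851 RefSeq promoters of 300 bases, the X box core letters in 12.7% and the interferon-gamma response element GAS, TTCNNNGAA, in 8.3%. None of the 3 patterns stood in the tabulated windows of H2-DMa and H2-DMb1, and GAS letters stood in neither chain promoter. H2-Ab1, Ciita and Cd74 were not among the promoters used here.

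In capillary ECs the class II genes were at low levels in every library and had higher values in both HFpEF libraries than in both NC libraries. H2-Aa, the alpha chain, was at 2.16 and 1.88 CPM in NC, against 9.73 and 11.4 CPM in HFpEF. H2-Ab1, its beta chain, was at 6.97 and 5.74 CPM in NC, against 16.1 and 18.1 CPM in HFpEF. H2-Eb1 was at 1.21 and 1.97 CPM in NC, against 7.21 and 6.68 CPM in HFpEF. For none of the 3 chains did the groups overlap, and the HFpEF-to-NC ratios of mean CPM were 5.24 for H2-Aa, 2.69 for H2-Ab1 and 4.36 for H2-Eb1.

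Cd74, the chaperone of both chains, was at 3.15 and 3.36 CPM in NC, against 21.2 and 19.5 CPM in HFpEF, a ratio of means of 6.25. H2-DMa was at 1.98 and 1.25 CPM in NC, against 6.01 and 3.75 CPM in HFpEF, and H2-DMb1 at 1.08 and 0.493 CPM in NC, against 3.12 and 4.08 CPM in HFpEF. These encode the alpha and beta chains of the peptide exchanger, and H2-DMb1 lies beside its near copy H2-DMb2, so the assignment of reads between the pair is uncertain. Ciita, the master regulator, was counted by 7 and 5 UMIs in the NC libraries and 6 and 22 UMIs in the HFpEF libraries, or 0.315 and 0.224 against 0.721 and 0.607 CPM. Its values therefore rest on 5 to 22 UMIs per library. In sums over cells, as here and below, fewer cells that express a gene and less RNA per cell cannot be told apart.

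**Figure D1:**
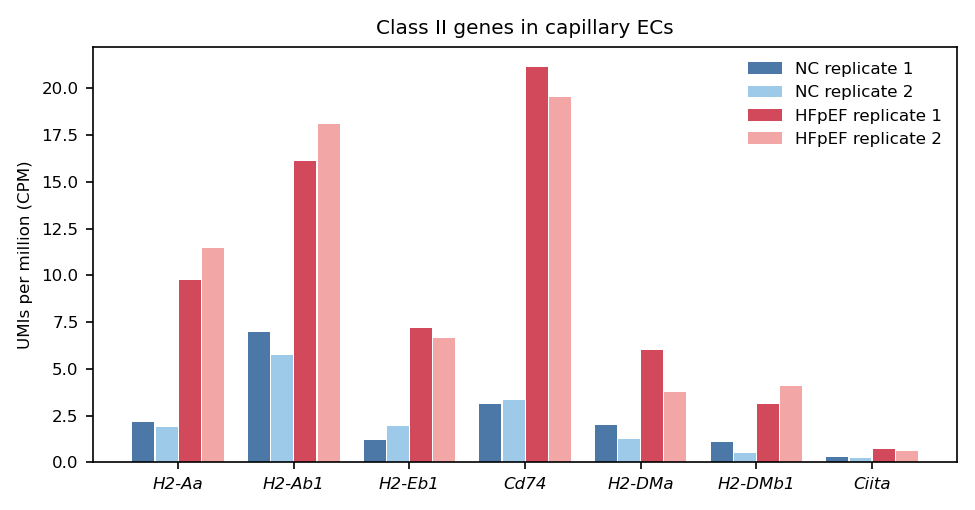
CPM (y axis) of each of the 7 class II genes (x axis) in the summed capillary ECs, with 1 bar per library and no error bars because each bar is 1 library. Both HFpEF bars (red) stand above both NC bars (blue) for each gene, from 0.607 to 21.2 CPM in HFpEF against 0.224 to 6.97 CPM in NC.

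On the log2 scale the fitted differences (HFpEF minus NC, standard error after the sign ±) were 2.64 ± 0.16 for Cd74, 2.41 ± 0.20 for H2-Aa, 2.23 ± 0.39 for H2-DMb1, 2.12 ± 0.28 for H2-Eb1, 1.53 ± 0.36 for H2-DMa, 1.44 ± 0.16 for H2-Ab1 and 1.23 ± 0.50 for Ciita (n = 2 libraries per diet). Their median was 2.12, beside -0.01 over all 12552 genes tested. Both HFpEF libraries were above both NC libraries for 7 of 7 genes, beside 24.6% of all genes tested. The members were chosen on this contrast, so nothing is read from that count and no test of them is given. Of all genes tested, 0.0239% passed an adjusted p of 0.05 in edgeR's quasi-likelihood test. Outside the 7 genes Cyp1a1 alone passed, and it fell by 4.66 ± 0.19 on the log2 scale. Calls of the 7 genes within this share are not read, since the genes were chosen on this contrast.

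Markers of some other lineages had higher sums in both HFpEF libraries than in both NC libraries. These were the markers of B, dendritic and mural cells and of neutrophils, and the hemoglobin genes given above. The other lists overlapped between the diets. B cell markers in capillary ECs summed to 0.450 and 0.852 CPM in NC, against 0.961 and 2.07 CPM in HFpEF, with 5 of 6 markers detected. Immunoglobulin genes (3 of 3 detected) were at 0.135 and 1.66 CPM in NC, against 1.56 and 3.50 CPM in HFpEF. Macrophage markers (9 of 9 detected) were at 2.29 and 3.36 CPM in NC, against 2.28 and 2.40 CPM in HFpEF, and dendritic cell markers (4 of 6 detected, Cd209a and Siglech at 0) at 0.0450 and 0.134 against 0.240 and 0.303 CPM. Neutrophil markers (3 of 4 detected, Csf3r at 0) were at 0.135 and 0.627 CPM in NC, against 2.04 and 2.57 CPM in HFpEF. T cell markers (5 of 5 detected) were at 1.30 and 1.21 CPM in NC, against 0.601 and 1.54 CPM in HFpEF, and markers shared by all leukocytes (5 of 5 detected) at 5.66 and 4.66 against 4.81 and 2.76 CPM. Mural markers (11 of 11 detected) were at 50.8 and 57.5 CPM in NC, against 121 and 80.0 CPM in HFpEF. With every EC left out that held a UMI of a B, T, myeloid or mural marker, the median difference of the 7 genes was 2.11. It was 2.15 with stricter gates that allowed at most 1 artery or vein marker UMI in a capillary EC, 2.10 without hemoglobin-rich cells and 2.20 with all cells thinned to 1000 UMIs. In each setting the gates counted marker UMIs before thinning, and HFpEF cells were shallower. Artery ECs numbered 829 and 737 beside 5364 and 4905 capillary ECs in NC, and 357 and 1657 beside 4314 and 16440 in HFpEF. The part of gating depth in the capillary difference was not tested.

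The class II UMIs were unevenly spread over the capillary ECs. No UMI of the 7 genes was found in 96.2% and 95.9% of these cells in NC and in 95.3% and 94.2% in HFpEF. The 1% of cells with the most class II UMIs held 59.7% and 54.7% of them in NC and 61.5% and 54.5% in HFpEF. Capillary ECs with 3 or more class II UMIs numbered 27 of 5364 and 21 of 4905 in NC and 57 of 4314 and 231 of 16440 in HFpEF, or 0.503% and 0.428% against 1.32% and 1.41%. The shares were higher in HFpEF, where the cells held fewer UMIs each. The part of depth in this difference was not tested.

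After every cell was thinned to 1000 UMIs, the share of capillary ECs with a UMI of any of the 7 genes was 1.24% (exact 95% interval 0.960 to 1.59) in NC replicate 1 and 1.22% (0.931 to 1.58) in NC replicate 2. It was 3.09% (2.55 to 3.71) in HFpEF replicate 1 and 3.76% (3.43 to 4.11) in HFpEF replicate 2. Thinning left out 223 and 170 shallower capillary ECs in NC and 659 and 3834 in HFpEF, and the unthinned shares were 3.78% and 4.10% against 4.68% and 5.77%. The intervals cover counting error only, and with 2 libraries against 2 an exact permutation test cannot give a p below 0.333.

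Free RNA in the droplets puts UMIs into cells that do not express a gene, so the same share was taken in cells that should lack class II. In HFpEF replicate 2, 4 of 21 T cells held a class II UMI after thinning (19%, 5.45 to 41.9), as did 1 of 22 neutrophils (4.55%, 0.115 to 22.8). So did 1 of 7 erythroid-gated cells, defined by at least 10% hemoglobin UMIs (14.3%, 0.361 to 57.9). Before thinning, which left out the shallower cells, the median depths of all 21, 31 and 27 such cells were 2056, 1971 and 636 UMIs, beside 1597 in capillary ECs. Pooled without thinning, the T cells, neutrophils and erythroid-gated cells held 19 class II UMIs in 79 cells (111 CPM), against 64.2 CPM in capillary ECs of the same library. The capillary share of this library (3.76%) lay below the shares of all these cells and within the intervals of the neutrophils and erythroid-gated cells. Artery ECs (11.7%) and mural cells (9.57%) of this library also lay below the T cell share. The capillary share is therefore not read as expression, and the part of free RNA in any class was not tested. None of the 79 cells held 3 or more class II UMIs, which allows a share of up to 3.80%, too coarse a limit to set against the 1.41% of capillary ECs. The other libraries held 4, 11 and 9 such cells, with 0, 1 and 49 class II UMIs, and the 49 lay in 2 of 5 neutrophils of HFpEF replicate 1.

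The proportion of H2-Ab1 to Cd74 UMIs was higher in capillary ECs than in the immune cells of the same libraries. There were 2.21 and 1.71 UMIs of H2-Ab1 per UMI of Cd74 in capillary ECs of NC and 0.761 and 0.925 in HFpEF. In B cells the ratio was 0.161 and 0.212 in NC and 0.195 and 0.218 in HFpEF, and in myeloid cells 0.337 and 0.316 against 0.274 and 0.283. The capillary ratio of H2-Ab1 was above those of B and myeloid cells in 4 of 4 libraries. Artery ECs, at 0.615, 0.503, 0.396 and 0.431, and vein ECs, at 0.358, 0.600, 0.348 and 0.416, also lay above B and myeloid cells in each library for this ratio. The ratio of H2-Eb1 to Cd74 did not separate the cells in this way. It was 0.386, 0.587, 0.341 and 0.342 in capillary ECs, beside 0.322, 0.349, 0.278 and 0.371 in myeloid cells. In artery ECs, at 0.213, 0.255, 0.219 and 0.220, it lay below the myeloid ratio in 4 of 4 libraries.

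**Figure D2:**
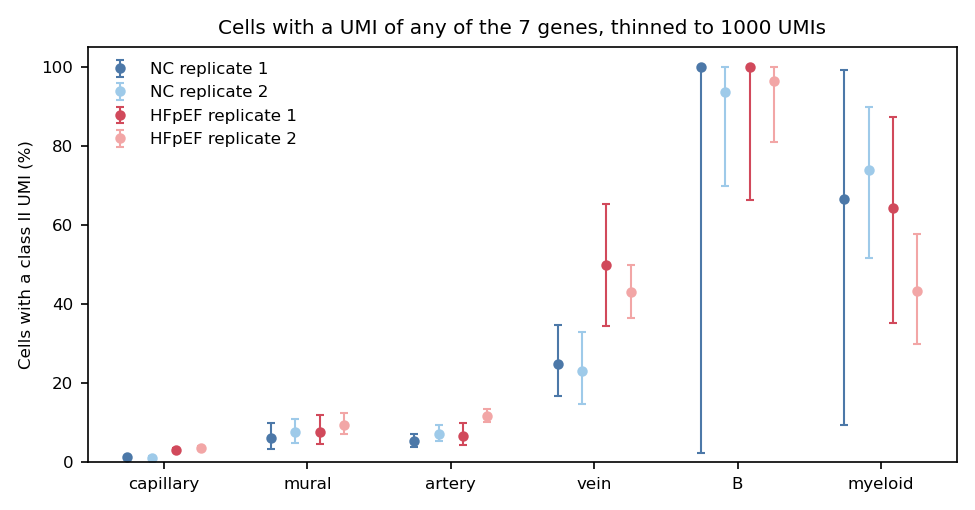
Percent of cells with a UMI of any of the 7 class II genes after thinning to 1000 UMIs (y axis) in each cell class (x axis), with 1 point per library and exact 95% binomial intervals. Capillary ECs sit at 1.22% to 3.76% in all 4 libraries, vein ECs between 23.1% and 50%, and B cells at or above 93.8%, where NC replicate 1 has 1 cell.

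Class II levels were ordered by vessel type, a contrast that the choice of genes did not use. Within the libraries, the 6 members tested were higher in artery than in capillary ECs and higher in vein than in artery ECs (edgeR quasi-likelihood test with the library as a block, Benjamini-Hochberg adjustment). Of all genes tested, 13.7% were higher in artery than in capillary ECs, 10.3% in vein than in capillary ECs and 10.6% in vein than in artery ECs. Ciita did not pass the filter on low counts in this fit.

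Cd74 was at 49.9, 93.7, 110 and 140 CPM in artery ECs and at 331, 171, 985 and 551 CPM in vein ECs (NC replicates 1 and 2, then HFpEF replicates 1 and 2). It rose by 3.26 ± 0.22 on the log2 scale from capillary to artery ECs (adjusted p = 2.254e-12) and by 5.32 ± 0.26 from capillary to vein ECs (adjusted p = 2.913e-15), in 4 of 4 libraries each. Each library by itself had the order capillary, artery, vein for this gene.

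H2-Aa was at 26.6, 33.2, 22.9 and 60.9 CPM in artery ECs and 110, 68.4, 290 and 189 CPM in vein ECs. H2-Ab1 was at 30.7, 47.1, 43.4 and 60.5 CPM in artery ECs and 119, 103, 343 and 229 CPM in vein ECs. H2-Eb1 was at 10.6, 23.9, 24 and 30.9 CPM in artery ECs and 79.1, 70.7, 229 and 156 CPM in vein ECs. The capillary-to-vein rise was 4.51 ± 0.29 for H2-Aa, 3.86 ± 0.20 for H2-Ab1 and 4.84 ± 0.24 for H2-Eb1 on the log2 scale, and the artery-to-vein rise 1.77 ± 0.27, 1.83 ± 0.19 and 2.33 ± 0.23.

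The peptide exchange genes followed the same order. H2-DMb1 rose by 2.21 ± 0.30 on the log2 scale from capillary to artery ECs and by 4.50 ± 0.36 from capillary to vein ECs. H2-DMa rose by 3.11 ± 0.39 from capillary to vein ECs and by 1.38 ± 0.27 from capillary to artery ECs (adjusted p = 0.0002222), in 3 of 4 libraries for the latter. With cells thinned to 1000 UMIs the artery difference of H2-DMa was 0.96 (adjusted p = 0.0813 in edgeR's test).

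**Figure D3:**
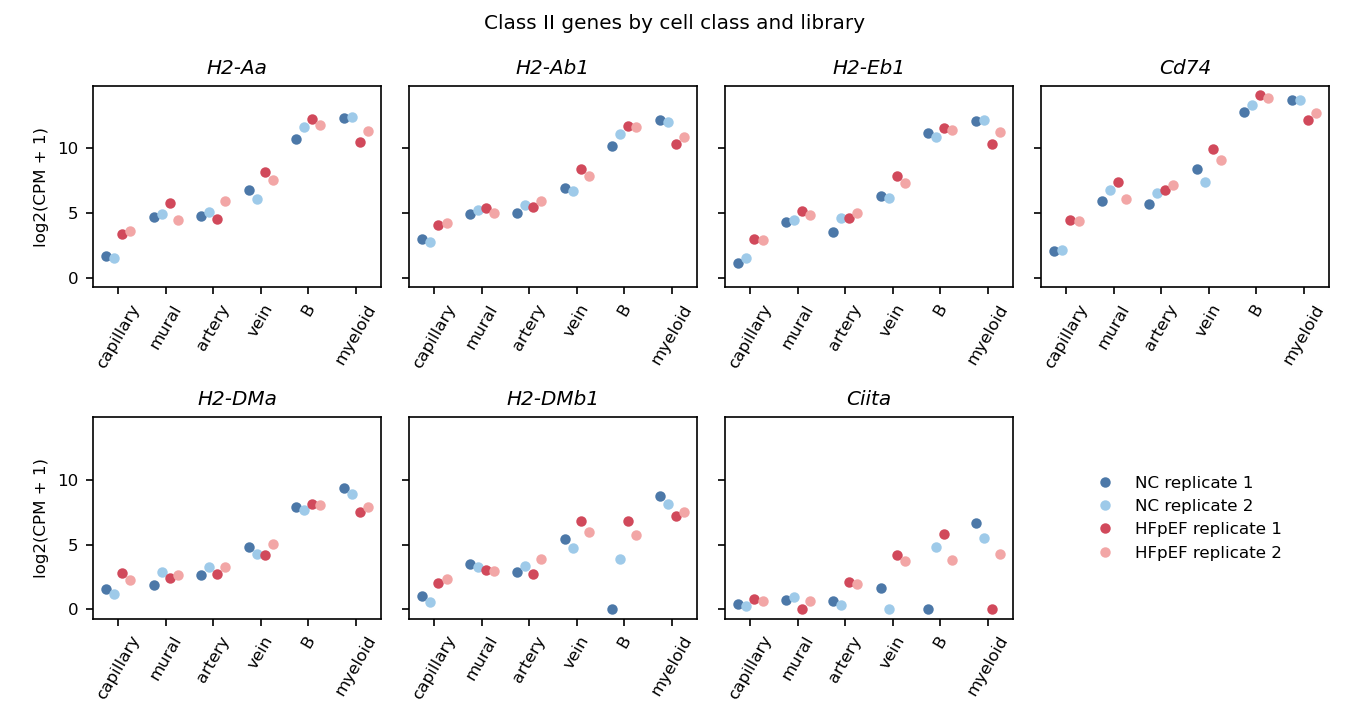
Level of each class II gene (panels) by cell class (x axis) as log2(CPM + 1) (y axis), with 1 point per library and a value of 0 where no UMI was counted. The chain genes and Cd74 climb from capillary through artery to vein ECs, and B and myeloid cells lie above all EC classes for these genes.

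Mural cells, the pericytes and smooth muscle cells around the vessels, were above capillary ECs for 5 of 7 genes, beside 20.3% of all genes tested. Cd74 was at 59.4, 108, 168 and 66.8 CPM in mural cells, 3.10 ± 0.46 above capillary ECs on the log2 scale (adjusted p = 3.87e-08 in edgeR's test). H2-DMa (0.62 ± 0.44, adjusted p = 0.2577) and Ciita (0.37 ± 0.96, adjusted p = 0.7885) did not pass edgeR's test. The mural gate holds both pericyte and smooth muscle markers, which were not separated.

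B and myeloid cells, the antigen-presenting cells of this sort, were above capillary ECs for 7 of 7 genes, beside 8.43% and 16% of all genes tested. In this fit the 7 genes passed the filter on low counts only through sums outside capillary ECs, and Ciita only through B and myeloid sums. The calls were therefore partly fixed by the filter, and the 7 of 7 is not read as a result. Cd74 was at 7289, 10522, 17617 and 14818 CPM in B cells and at 13584, 13250, 4593 and 6745 CPM in myeloid cells, differences of 10.02 ± 0.58 and 10.04 ± 0.59 from capillary ECs on the log2 scale. Ciita was 5.74 ± 1.45 higher in B cells, where it was counted by 0, 2, 1 and 1 UMIs, and 6.16 ± 0.83 higher in myeloid cells. H2-DMb1, with 0, 1, 2 and 4 UMIs in B cells, was 4.34 ± 1.11 higher there and 6.92 ± 0.40 higher in myeloid cells.

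The direction of the HFpEF-to-NC difference varied between cell classes. Shares over all genes cover only genes that passed the filter on low counts, on CPM after edgeR's normalization (TMM). The counts of the 7 genes use CPM without it. They include genes that failed the filter, Ciita in artery, vein, mural and myeloid cells and H2-DMb1 in B cells, so count and share are not fully alike. In vein ECs, both HFpEF libraries were above both NC libraries for 6 of 7 genes, beside 18.3% of all genes tested, and H2-DMa overlapped. The vein differences were 1.55 ± 0.34 for Cd74, 1.28 ± 0.30 for H2-Aa, 1.26 ± 0.26 for H2-Ab1, 1.22 ± 0.27 for H2-Eb1 and 1.14 ± 0.41 for H2-DMb1 on the log2 scale, with a median of 1.24 over the 6 genes fitted. Ciita was counted by 1 and 0 UMIs in NC and 2 and 9 in HFpEF vein ECs. After thinning, 25.0% (16.9 to 34.7) and 23.1% (14.9 to 33.1) of NC vein ECs and 50% (34.6 to 65.4) and 43.1% (36.5 to 49.9) of HFpEF vein ECs held a class II UMI. The 4 libraries held 102, 92, 45 and 234 vein ECs.

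In artery ECs the groups overlapped for 4 of 7 genes and both HFpEF libraries were higher for 3, Cd74, H2-Eb1 and Ciita, beside 20.8% of all genes tested. The fitted median was 0.64. It was -0.03 without HFpEF replicate 2, 0.36 without NC replicate 1, 0.21 with stricter gates and 1.09 with thinned cells. In mural cells, 4 genes overlapped and both HFpEF libraries were higher for H2-Eb1 alone (beside 20.5% of all genes tested). Both were lower for H2-DMb1 and Ciita (beside 20.7%). Mural Ciita rests on 1 and 2 UMIs in NC and 0 and 1 in HFpEF. Mural H2-DMb1 rests on 15 and 19 against 5 and 13 UMIs, with a difference of -0.38 ± 0.44 that is smaller than its standard error. The mural median was 0.26, and it was -0.20 without HFpEF replicate 1, -0.01 without NC replicate 1 and 0.84 without HFpEF replicate 2. In B cells, both HFpEF libraries were higher for 6 genes, beside 20.3% of all genes tested, with a median of 0.56. The NC side rests on 1 and 17 B cells, and the median was 0.33 without NC replicate 1 and 1.41 without NC replicate 2. Whether the artery, vein and capillary differences differ from each other was not tested.

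In myeloid cells all 7 genes had lower values in both HFpEF libraries than in both NC libraries, beside 19.1% of all genes tested, with a median of -1.34. NC replicate 1 held 3 myeloid cells, and 1 of them held 781 of their 859 class II UMIs. The difference was -1.28 ± 0.36 for Cd74, -1.42 ± 0.39 for H2-Aa, -1.49 ± 0.36 for H2-Ab1 and -1.41 ± 0.42 for H2-DMa on the log2 scale. Neutrophils, which carry little class II, made up 0 of 3 and 2 of 23 myeloid cells in NC and 5 of 15 and 31 of 64 in HFpEF. In macrophage-gated cells alone, a setting chosen after seeing the data, the median was -0.90, and NC replicate 1 held 3 of these cells. With cells thinned to 1000 UMIs the myeloid median was -0.78.

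Around the 7 genes, 64 genes of the class II pathway and of its interferon-gamma control were read in the same capillary ECs, and 55 passed the filter. Their lists were chosen with earlier results of these data known, so counts over a list below are a description and not independent support. None passed an adjusted p of 0.05 between the diets in edgeR's quasi-likelihood test. At an unadjusted p under 0.05, 23 had higher and 3 lower values in HFpEF, beside 17.8% of all genes, and DESeq2 called 11 higher and 1 lower at an adjusted p of 0.05, beside 238 of all 12552 genes. The 11 were B2m, Cd274, Cxcl9, Gbp2, Gbp3, Gbp5, Gbp6, Gbp7, H2-K1, Igtp and Irgm1, and the gene called lower was Rfxap.

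Of the interferon-gamma induced genes, 13 of 13 had higher fitted values in HFpEF, with a median of 0.70 on the log2 scale. All 13 were under an unadjusted p of 0.05 in edgeR's test, but nothing is read from these counts, since the list was chosen with earlier results known. Gbp8, Gbp6 and Gbp5, guanylate-binding proteins of cell-autonomous defence, had the highest values of this list. Gbp6 was at 5.17 and 6.23 CPM in NC, against 17.4 and 14.2 CPM in HFpEF (1.46 ± 0.18, adjusted p = 0.07254 in edgeR's test). Gbp8 was at 0.270 and 0.314 against 1.20 and 0.938 CPM (1.79 ± 0.45, adjusted p = 0.1548 in edgeR's test), and Gbp5 at 18.8 and 31.1 against 53.6 and 43.2 CPM (0.95 ± 0.23, adjusted p = 0.147 in edgeR's test). For none of these 3 genes, which were named for their large values, did the groups overlap. Over all genes tested, 24.6% had both HFpEF libraries above both NC libraries. None of the 3 passed the adjusted threshold in edgeR's main test, while Gbp5 and Gbp6, but not Gbp8, were called by DESeq2, with the replicate block and with no filter on low counts.

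Upstream of them, the interferon-gamma signalling list (9 genes) had a median of 0.27. The receptor chains lay on opposite sides of 0, with Ifngr2 at 0.37 ± 0.11 and Ifngr1 at -0.36 ± 0.10, and neither passed the adjusted threshold. Among the 8 class II transcription factors the median was -0.05. Rfxap, a subunit of the RFX complex, was at 66.3 and 82.3 CPM in NC, against 53.1 and 48.3 CPM in HFpEF (-0.55 ± 0.13, adjusted p = 0.147 in edgeR's test), while Rfx5 and the NF-Y genes Nfya, Nfyb and Nfyc were between -0.07 and 0.14.

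The antigen processing genes had a median of -0.12 over the 6 tested. Ctsd, a lysosomal aspartic protease, was at 259 and 232 CPM in NC, against 173 and 194 CPM in HFpEF (-0.41 ± 0.11, adjusted p = 0.1601 in edgeR's test). Ctss, the cathepsin that trims Cd74 in B cells and dendritic cells, was counted by 0 and 4 UMIs in NC and 3 and 8 UMIs in HFpEF, while Ctsl, a related cathepsin, was at 505 to 655 CPM in all 4 libraries. Of the remaining class II genes, H2-Ob, an inhibitor of H2-DM, was the only one tested (0.45), H2-Oa was counted by 5 UMIs in HFpEF replicate 2 and 0 elsewhere, H2-DMb2 by at most 1 UMI in a library and H2-Eb2 by 0.

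The MHC class I list, which serves presentation to CD8+ T cells, had a median of 0.25 with 11 of 11 values above 0. Nlrc5, its transactivator and a relative of Ciita, was at 8.77 and 7.84 CPM in NC, against 13.9 and 13.2 CPM in HFpEF (0.71 ± 0.15, adjusted p = 0.1247 in edgeR's test). B2m, the invariant light chain of class I, differed by 0.55 ± 0.13 and H2-K1, a heavy chain, by 0.46 ± 0.15. Among costimulation and checkpoint ligands the median was -0.02. Cd274, which encodes PD-L1, was at 40.5 and 69.9 CPM in NC, against 88.2 and 89.6 CPM in HFpEF (0.70 ± 0.23, adjusted p = 0.1982 in edgeR's test), and Icosl, the ICOS ligand, differed by 0.64 ± 0.27. The ligands Cd80 and Cd86, which prime naive T cells, were counted by at most 1 UMI per library.

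**Figure D4:**
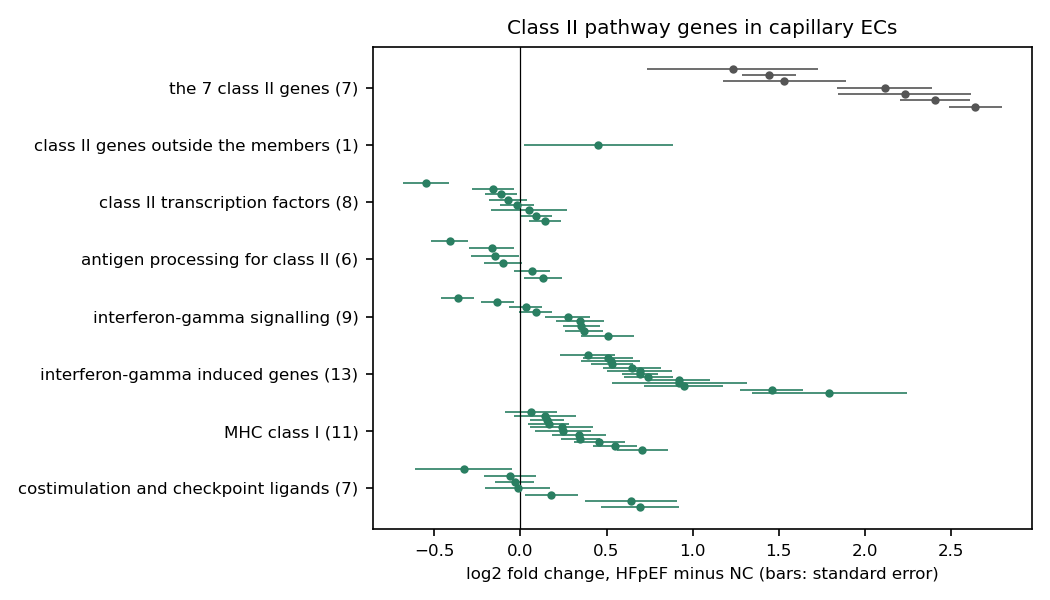
HFpEF-minus-NC log2 fold changes in capillary ECs (x axis, bars are standard errors from 4 libraries) of the 7 class II genes (grey, description only) and the pathway lists (green), with 1 point per gene and the number tested in parentheses. The 7 genes lie between 1.23 and 2.64, and the interferon-gamma induced genes lie between 0.39 and 1.79.

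The pathway lists did not share the vessel order of the class II genes. From capillary to artery ECs, 7 of 52 list genes rose and 15 fell, and from capillary to vein ECs 10 rose and 17 fell, beside 28.1% and 21.7% of all genes called in either direction. Among those that fell in artery ECs were Cxcl9, an interferon-gamma induced chemokine (-2.22 ± 0.09), Irf8 (-1.90 ± 0.11) and Cd274 (-0.74 ± 0.08), in edgeR's blocked test. In vein ECs, Icosl (3.09 ± 0.27), Lgmn, the endosomal asparaginyl protease (1.46 ± 0.23), Icam1, a leukocyte adhesion molecule (1.29 ± 0.08), Irf1 (0.90 ± 0.10) and Ctsd (0.81 ± 0.09) rose. Ctsl (-1.20 ± 0.09), Cxcl9 (-1.01 ± 0.13) and Rfxap (-0.69 ± 0.16) fell in vein ECs.

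To find what else marked the capillary ECs with class II RNA, cells thinned to 1000 UMIs were split by whether they held a UMI of H2-Aa, H2-Ab1 or H2-Eb1, after any EC with a B, T, myeloid or mural marker UMI was left out. There were 33, 35, 66 and 281 positive and 4485, 3978, 3165 and 10977 negative cells in NC replicates 1 and 2 and HFpEF replicates 1 and 2. Within libraries, 104 of 8773 genes differed, 51 higher in positive cells (0.581%) and 53 lower (0.604%), in edgeR's test with the library as a block. A gene with low values in all negative sums could pass the filter on low counts only through the positive sums. H2-DMa, Lbp, Itih5 and Sema3d, at most at 4.74 CPM in negative cells, were such genes. Their rises were therefore largely fixed by the filter and are not read as a result.

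Cd74, which was not used for the split, was at 182, 85.7, 545 and 395 CPM in positive cells and 1.34, 3.02, 9.79 and 9.02 CPM in negative cells, a rise of 5.44 ± 0.23 on the log2 scale (adjusted p = 3.887e-119 in edgeR's test). H2-DMa was at 30.3, 57.1, 106 and 35.6 CPM in positive and 2.23, 1.01, 3.79 and 3.37 CPM in negative cells, a rise of 3.81 ± 0.50. H2-DMb1 (28 UMIs in positive and 36 in negative cells) and Ciita (0 and 9 UMIs) did not pass the filter. Cd74 and H2-DMa were thus higher in the chain-positive cells in 4 of 4 libraries, which for H2-DMa the filter on low counts had fixed. In these cells Cd74 rests on 6, 3, 36 and 111 UMIs and H2-DMa on 1, 2, 7 and 10 UMIs. The p of Cd74 rests on these counts and on a spread shared over genes, and does not measure how far 4 libraries agree. A value of 30.3 CPM in positive cells of NC replicate 1 is 1 UMI. The chain genes and Cd74 were also high together in vein ECs and in B and myeloid cells. The rise of Cd74 and H2-DMa with the chains is therefore not read as expression in capillary ECs. The part of free RNA in it was not tested.

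The other genes with the highest rises included several that encode secreted proteins. Lbp, the lipopolysaccharide-binding protein, was at 30.3, 57.1, 75.8 and 42.7 CPM in positive cells and 3.79, 1.26, 4.74 and 2.10 CPM in negative cells (4.01 ± 0.51). Igfbp5, a binding protein of insulin-like growth factors, was at 30.3, 457, 212 and 285 against 28.5, 13.3, 19 and 18.7 CPM (3.58 ± 0.24). Vwf, the von Willebrand factor gene and itself a vein marker of the gate, was at 273, 143, 30.3 and 81.9 against 18.7, 10.1, 6.95 and 9.47 CPM (3.07 ± 0.36). Serpina1b, Itih5, Prss23, Sema3d and Igf1 rose by 3.18 to 4.10. Itih5 lost the call whichever library was left out, and Sema3d without HFpEF replicate 1 or HFpEF replicate 2. Serpina1b and Igf1 lost it without HFpEF replicate 2. Serpina1b was at 0 CPM in positive cells of HFpEF replicate 1 and Igf1 in those of NC replicate 1. Icosl was the only pathway list gene that rose (2.36 ± 0.63, adjusted p = 0.01843 in edgeR's test).

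Lower in positive cells was Car4, a carbonic anhydrase that marks capillary ECs and was used for the gate. It was at 242, 371, 106 and 228 CPM in positive and 518, 505, 382 and 399 CPM in negative cells (-1.17 ± 0.21). Ctsl fell by 1.17 ± 0.20, and Jam3, a junctional adhesion molecule, by 1.48 ± 0.37. Car4, Ctsl and Jam3 lost the call at 500 UMIs per cell, with positives from 2 UMIs and in cells with no artery or vein marker UMI. Jam3 also lost it with DESeq2 and without HFpEF replicate 1 or HFpEF replicate 2. The 4 hemoglobin genes fell by 1.39 to 2.15, with 0 UMIs in the positive cells of 3 libraries, and all 4 lost the call with no replicate block, with DESeq2 and at 500 UMIs per cell. Wdr89, Synm and Rhog, with at most 45.5 CPM in positive cells, had values of -2.89 to -2.02. All 3 lost the call with DESeq2, at 500 UMIs per cell and without HFpEF replicate 2. They also lost it with positives from 2 UMIs and in cells with no artery or vein marker UMI.

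The positive cells lay nearer to the vein gate. They held 0.879, 0.971, 0.273 and 0.416 vein marker UMIs per cell, against 0.199, 0.210, 0.0790 and 0.106 in negative cells, while artery markers differed less, at 0.788, 0.971, 0.303 and 0.712 against 0.773, 0.680, 0.294 and 0.468. Of the named genes, Lbp, Igfbp5, Prss23 and Vwf also rose from capillary to vein ECs, by 5.61, 4.99, 5.19 and 6.81, a contrast that uses the same capillary cells. In capillary ECs with no artery or vein marker UMI, a setting chosen after seeing the data, 199 positive and 14180 negative cells remained and 7 genes were called. Igfbp5 (3.67 ± 0.41), Slco2a1, the prostaglandin transporter (2.70 ± 0.62), Ifi27l2a, an interferon-inducible gene (2.38 ± 0.46), Vcam1, a leukocyte adhesion molecule (1.99 ± 0.41), and Arhgef40 (1.96 ± 0.44) were higher, and Hbb-bs and Hba-a1 were lower. Of the higher genes, Igfbp5, Vcam1, Slco2a1 and Ifi27l2a also had higher values in vein than in capillary ECs, by 4.99, 4.61, 4.36 and 1.27. Arhgef40 did not, at -0.34. Vcam1 is itself a vein EC marker that the gate did not use, so venous cells may remain in this setting. The positive cells numbered 13 and 16 in NC and 41 and 129 in HFpEF. Each of the 5 higher genes was at 0 in the positive cells of at least 1 NC library. Igfbp5 was at 0 in both, with 317 and 147 CPM in HFpEF. Cd74 did not pass the filter there and was at 0, 62.5, 366 and 287 CPM in positive and 1.69, 3.49, 5.99 and 4.17 CPM in negative cells. Lbp, Prss23 and Vwf had no test there either. Whether the fall from 104 calls came from the smaller number of cells was not tested.

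**Figure D5:**
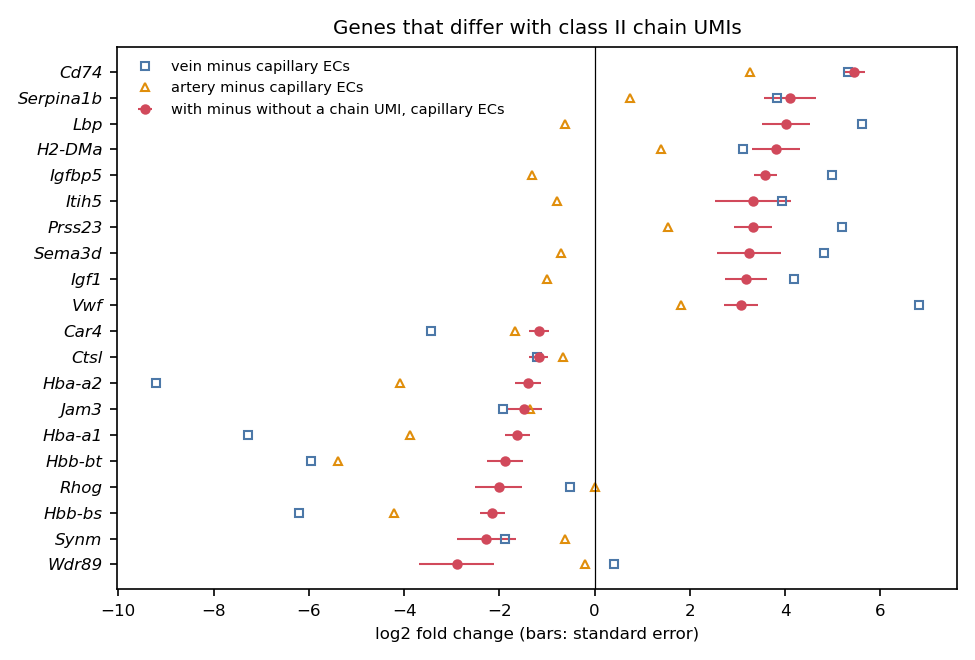
Log2 fold changes (x axis) of the 20 genes named by rule in the split of capillary ECs (red, bars are standard errors, library as a block), with the vein-minus-capillary (blue squares) and artery-minus-capillary (orange triangles) values of the same genes, which use the same capillary cells. The 10 higher genes lie between 3.07 and 5.44 in the split, and their vein-minus-capillary values lie between 3.11 and 6.81.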

How the data were processed

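The deposited values are UMI counts per gene and cell. The authors trimmed reads with fastp, aligned and counted them with Cell Ranger 5.0.1 (mm10, Ensembl 100) and downsampled libraries to equal reads per cell. Cells with over 200 genes and under 20% mitochondrial UMIs were kept. Classes were gated by summed marker UMIs: 3 or more of pan-EC and of capillary markers for capillary ECs, and 3 or more and at least 0.1% of UMIs of artery or vein markers. Cells over another lineage's minimum were left out as mixed, and no doublet caller was run. Counts were summed per library and class and tested with edgeR 4.0.16 (quasi-likelihood, TMM, filterByExpr, Benjamini-Hochberg over all genes, R 4.3.3), with DESeq2 1.42.0 as an alternative, and with the library as a block between classes.

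Named genes were the 7 members, list genes passing an adjusted p of 0.05 or up to 3 per list with the largest absolute difference, and in the split the 10 highest and 10 lowest called genes with a mean of at least 10 CPM. Other list genes named above were chosen after their values were seen. The members, the 7 lists and the gates were chosen with earlier results of these data known. On simulated counts, the diet fit in capillary ECs recovered 143 of 200 genes changed by a log2 fold of 1 with 25 false calls, and 183 of 200 changed by 2, and the split fit recovered 29 and 142 of 200. Positions are from GENCODE M21 and promoters from RefSeq. Some genes of the lists are not reported here by name.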

Additional observations from a re-analysis of the deposited data

Results flagged for a closer look

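The myeloid cells went against the ECs and B cells. Their HFpEF-minus-NC log2 differences were -1.42 for H2-Aa, -1.49 for H2-Ab1, -1.27 for H2-Eb1, -1.28 for Cd74, -1.41 for H2-DMa and -1.04 for H2-DMb1. For each of them both HFpEF libraries were below both NC libraries, beside 19.1% of all genes tested in myeloid cells. In capillary ECs the same genes had both HFpEF libraries above both NC libraries, beside 24.6% of all genes tested. So did most of them in vein ECs and B cells, beside 18.3% and 20.3%. In mural cells H2-DMb1 was at -0.38 ± 0.44, opposite in sign to capillary and vein ECs but smaller than its standard error. It rests there on 15 and 19 UMIs in NC and 5 and 13 in HFpEF. The groups did not overlap, beside 20.7% of all genes tested that were lower in both HFpEF libraries. These differences between cell classes were not tested. In NC replicate 1, 1 of 3 myeloid cells held 781 of their 859 class II UMIs. The neutrophil share of the myeloid cells differed between the diets and the macrophage-only median was -0.90. The part of the cell mixture in the myeloid values was not tested beyond that value.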

How the results depend on the processing

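The median capillary difference of the 7 genes was 2.12 and lay between 2.10 and 2.20 under 8 other settings (gates, marker-positive or hemoglobin-rich cells left out, thinning, no TMM, no filter, replicate block, DESeq2). It lay between 1.78 and 2.05 when a library was left out. The replicate numbers are not known to pair the libraries (r = -0.0025 over 12552 genes between the replicate differences of the diets). With the replicate block the median was 2.11, and 279 genes were called in capillary ECs in place of 3. Of the pathway genes, 8 were called in place of 0 (Cd274, Gbp2, Gbp3, Gbp4, Gbp5, Gbp6, Gbp7 and Igtp, all higher). The counts of all diet calls here and below include the 7 genes, whose own calls are not read.

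The count of diet calls in capillary ECs was 8 with stricter gates, 8 without ECs holding other lineages' markers, 5 without hemoglobin-rich cells, 72 with thinned cells, 408 with no filter, 238 with DESeq2 and 0 to 55 with a library left out (0 without HFpEF replicate 2, 55 without NC replicate 2). Pathway calls numbered 2 with thinned cells, 12 with no filter, 12 with DESeq2 and 0 to 5 with a library left out. The split gave 14 calls at 500 UMIs, 21 with positives from 2 UMIs, 7 without artery or vein marker UMIs, 171 with no filter, 60 with no replicate block, 59 with DESeq2 and 54 to 106 with a library left out (54 without HFpEF replicate 1). The HFpEF-minus-NC difference in the share of class II-positive capillary ECs was 2.19 percentage points, 1.47 at 500 UMIs, 1.70 with stricter gates and 1.86 to 2.53 with a library left out.

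The counts of members higher in artery or vein than in capillary ECs (11 to 14, beside 12) and in mural, B or myeloid cells (17 to 20, beside 19) moved little. Of 501 single-gene tests under alternatives, 444 kept direction and side of the threshold, 56 lost the call, 1 gained it (H2-DMa in mural cells without HFpEF replicate 1, 0.90, adjusted p = 0.03248 in edgeR's test) and 0 turned. Genes that failed the count filter in a setting are not among these tests. Of the named split genes, 3 kept the call and 10 lost it at 500 UMIs. Without artery or vein marker UMIs 3 kept it and 7 lost it, and the rest had no test in these settings. Where not stated, the cause of a moved value was not tested. Depth per cell limits what single cells show, since most class II-positive capillary ECs held fewer than 3 class II UMIs.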

Other observations

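Across the 24 sums of library and cell class, the genes whose log2(CPM + 1) profile was most like the mean profile of H2-Aa, H2-Ab1 and Cd74 were Rel (Pearson's r = 0.927), Ptprj (0.910), Ctsh (0.908), Coro1a (0.906) and Tgif1 (0.906), among 8295 genes with a mean of at least 10 CPM. Among the members, H2-DMa had r = 0.974, Ciita 0.735 and H2-DMb1 0.726. Over the 12 sums of the EC classes the nearest of 7902 genes were Lmna (0.960), Ankrd33b (0.958), B4galt1 (0.952), Emp1 (0.950) and Atp1b3 (0.948), and H2-DMb1 had r = 0.982 and H2-DMa 0.935. The sums share libraries, depth and free RNA, so these values are a description of likeness with no p.

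Class II UMIs were also found in sorted cells outside the 6 classes. Fibroblast-gated cells held a class II UMI, after thinning, in 23.1% (8.97 to 43.6) and 3.45% (0.0873 to 17.8) of NC and 20.8% (7.13 to 42.2) and 7.78% (3.18 to 15.4) of HFpEF cells, with 24 to 90 cells per library. Lymphatic-gated ECs held one in 14.3%, 18.8%, 0% and 13.3% of cells, where 0 of 12 cells has an exact 95% upper limit of 26.5%. Cells left out as mixed did so in 4.36%, 9.44%, 12% and 18.6% of cells. The spread between libraries of a diet was wide and the intervals overlap in the fibroblast and lymphatic cells.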
